A study of Mus musculus with 8 samples.

Results

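Ribosome biogenesis is the making of ribosomal subunits in the nucleolus. RNA polymerase I copies the ribosomal DNA into a long precursor RNA, small nucleolar ribonucleoproteins (snoRNPs) modify it, and large assemblies of processing factors cut it and fold it into the small (40S) and large (60S) subunits. The genes were chosen by symbol alone: names made of Utp, Nop or Rrp with a number, the RNA polymerase I subunits Polr1a to Polr1h, and a list of other nucleolar factors such as Ncl, Npm1, Fbl and Ubtf. The rule found 58 of the 15288 genes in the count table. All 58 passed the filter on low counts, and the lowest count of any of them in any library was 469.

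The libraries came from IMCD, a mouse cell line named for the inner medullary collecting duct, the last stretch of the renal tubule, where the fluid around the cells can become strongly hypertonic. Cells were held in serum-free DMEM for 12 h, either without added salt (control, libraries 1 to 4) or with 100 mmol of added NaCl (libraries 5 to 8), so both groups were also deprived of serum. The labels name no genotype or clone. They do not say whether the 4 libraries of a group came from separate cultures, so p-values measure the spread between these libraries, which may be technical. All comparisons below are NaCl over control.

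Totals were between 35286796 and 47565623 counts per library. Of 18 marker genes of collecting duct and tubule epithelium, 14 passed the filter. Levels are given in CPM, the count of a gene scaled to library size. The list included the keratin genes Krt7 (338 CPM in control), Krt8 (109) and Krt18 (217) and the epithelial gene Cdh16 (639). The water channel gene Aqp2, which defines principal cells, had at most 15 counts in any library, and the E-cadherin gene Cdh1 had at most 30. Of the proximal tubule list, Lrp2 alone passed the filter, at means of 185 CPM in control and 162 CPM in NaCl libraries. Within the fibroblast list the collagen genes were high, with Col1a1 at a mean of 2490 CPM in control and 2150 CPM in NaCl libraries. Col1a2 had 434 and 406 CPM, Pdgfrb 37.5 and 61.1 CPM, and Pdgfra 2.38 and 1.5 CPM. The summed level of all 4 fibroblast markers was between 2740 and 3170 CPM in control and between 2390 and 2810 CPM in NaCl libraries, and that of the epithelial list was between 1230 and 1600 and between 2020 and 2320 CPM. Cdh16 carried the difference of the epithelial list, at 1380 CPM in NaCl libraries, where Krt7 had 325, Krt8 96.5 and Krt18 205 CPM. Both leukocyte markers that were tested were low, summing to between 5.95 and 7.19 CPM in control and between 14.9 and 15.3 CPM in NaCl libraries. Ptprc had means of 4.05 and 13.5 CPM, and Cd68 had 2.41 and 1.69 CPM. The part of these differences in the results was not tested.

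Salt was accompanied by small and mostly downward differences in these genes, with the group as the single term largest for Ncl, Mybbp1a and Npm1. Of the 58 genes, 31 changed (edgeR's quasi-likelihood test, adjusted p under 0.05 over all 14024 tested genes), where 34.1% of all tested genes did. Of these, 29 fell and 2 rose, and 27 genes did not pass the test. Of all tested genes, 17.2% fell and 16.9% rose. The median log2 fold change was -0.15 for the 58 genes and 0.00 for all tested genes, and the range was from -0.49 for the nucleolin gene Ncl to 0.16 for Bop1. In 26 of the 58 genes every NaCl library lay below every control, and in none did every one lie above, where 16.9% of all tested genes were separated downward and 16.5% upward. Together they took up 0.610 ± 0.029% of a control library's counts and 0.519 ± 0.011% of an NaCl library's (SD, n = 4 each), and without Ncl and Npm1 the shares were 0.424 and 0.381%. In bulk RNA, fewer cells that carry a transcript and less of it per cell cannot be told apart.

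**Figure D1:**
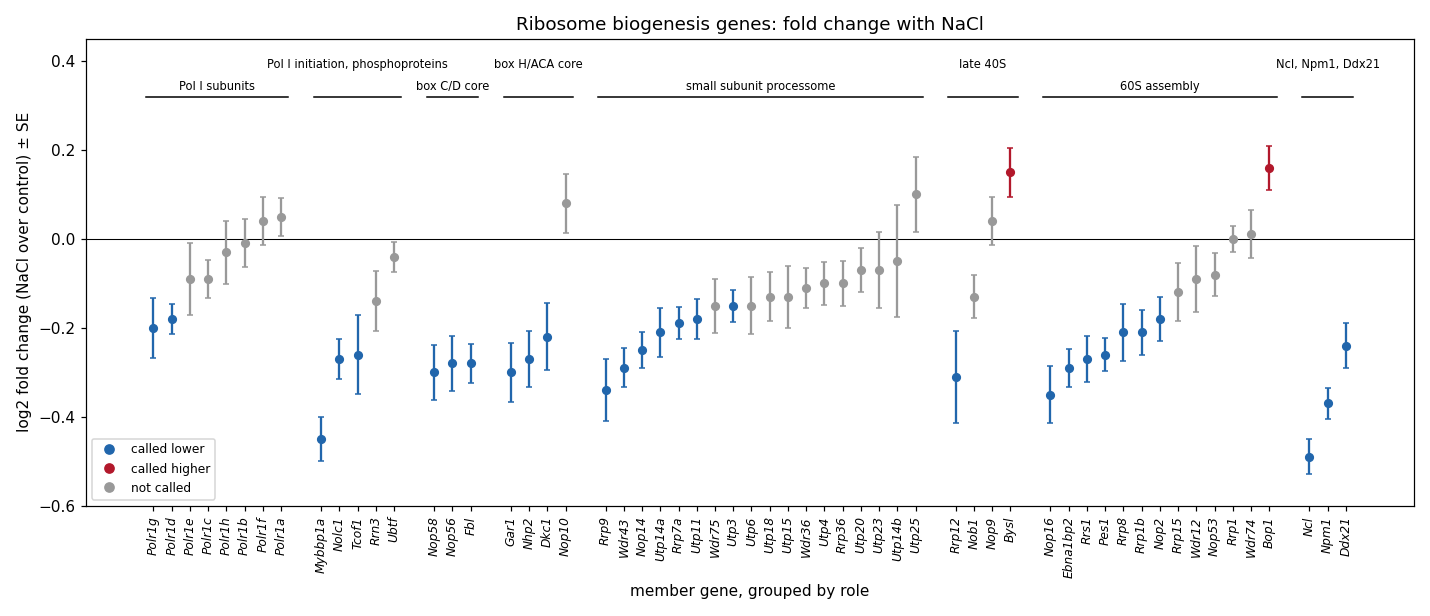
Log2 fold change (NaCl over control) of each of the 58 genes with its standard error, grouped by role. Blue points were called lower, red points higher and grey points were not called. The 3 box C/D genes among the 58 and Ncl, Npm1 and Ddx21 lie below 0. Of the RNA polymerase I subunits Polr1g and Polr1d are blue and the other 6 grey, and Bop1 and Bysl are the 2 red points.

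The library number in the labels bears on how these counts can be read. Within groups, at a given group mean, 45 of the 58 genes had a negative slope over the library number, and 17 of these slopes passed the test, against 6.22% of all tested genes (1 positive slope passed, against 6.95%). Because controls hold numbers 1 to 4 and NaCl libraries 5 to 8, a linear drift across all 8 libraries and the treatment are partly aligned. With such a drift as a second term, 9 of the 58 genes (15.5%) fell, against 12.6% of all tested genes, and 4 rose (6.9%), against 11.5%. The share that fell was then near that of all tested genes, and the median was -0.02. Of the 31 genes called with the group alone, 9 kept their call and direction once the drift was added. They were Ncl, Npm1, Mybbp1a, Pes1, Ebna1bp2, Rrp7a and Polr1g, which fell, and Bop1 and Bysl, which rose. Utp23 and Nop53, which fell, and Utp14b and Utp25, which rose, were called with the drift and not with the group alone. Of the 29 genes that fell with the group alone, 21 kept a negative and 8 took a positive fold change under the drift. The added term also widened many standard errors, from 0.034 to 0.067 for Polr1d and from 0.045 to 0.088 for Utp11. These genes lost the call with values little changed (-0.18 to -0.15 and -0.18 to -0.19), while Nop56 went from -0.28 to 0.05. A lost call is thus not by itself a lost difference. The drift fit separates order from treatment only where order acts linearly. A step between libraries 1 to 4 and libraries 5 to 8 cannot be told apart from the treatment in this design. Values from both fits are given for the genes the results turn on.

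**Figure D2:**
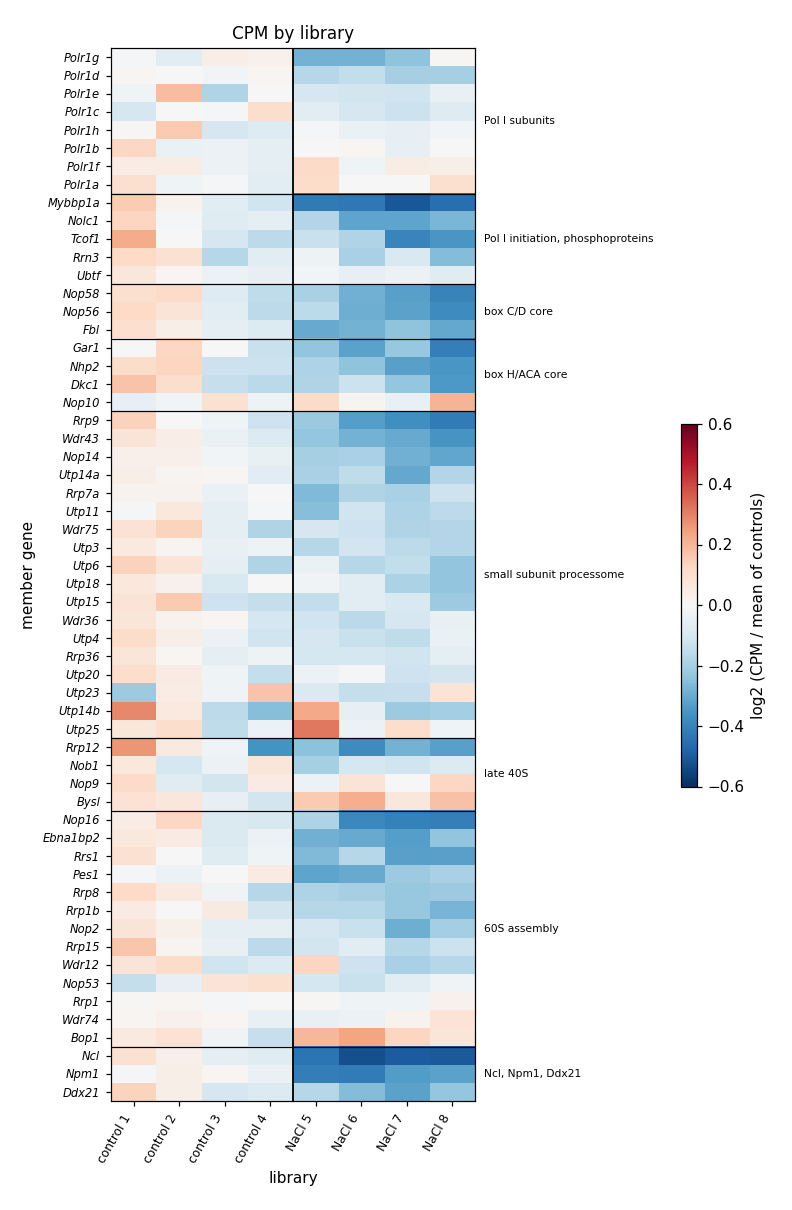
Colour gives the log2 ratio of CPM in each library to the mean of the 4 control libraries, with genes in rows by role and libraries in columns. The 4 NaCl columns are blue for Ncl, Npm1 and Mybbp1a, while Tcof1, Dkc1 and Nop58 are red or pale in controls 1 and 2 and blue in controls 3 and 4.

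Ncl and Npm1, genes of abundant nucleolar proteins, were among those that fell most clearly. Nucleolin and nucleophosmin, encoded by Ncl and Npm1, are RNA-binding proteins that make up much of the nucleolus, and they had the highest levels of the 58 genes per kilobase of coding sequence (472 and 984 CPM per kilobase in control). Ncl (ENSMUSG00000026234) had 1069, 1024, 963 and 952 CPM in controls 1 to 4 and 740, 696, 708 and 707 CPM in NaCl libraries 5 to 8. Every NaCl library lay far below every control. On the log2 scale the change was -0.49 (SE 0.039; edgeR adjusted p = 5.49e-08), a level 28.8% lower, and with the drift it was -0.34 (adjusted p = 9.10e-06).

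Npm1 (ENSMUSG00000057113) had 856, 883, 870 and 839 CPM in control and 646, 645, 683 and 689 CPM in NaCl libraries. The controls lay close together and all above the NaCl libraries, with no downward slope within groups. On the log2 scale the change was -0.37 (SE 0.034; edgeR adjusted p = 3.11e-07), a level 22.8% lower, and with the drift it was -0.43 (adjusted p = 2.25e-07). Ddx21 (ENSMUSG00000020075), an RNA helicase that acts in ribosomal RNA transcription and processing, had 192, 179, 163 and 165 CPM in control and 155, 146, 140 and 149 CPM in NaCl libraries. The groups did not overlap, with the third control and NaCl library 5 the nearest pair. Its log2 fold change was -0.24 (SE 0.050; adjusted p = 0.00134) with the group alone and -0.04 (adjusted p = 0.731) with the drift. Against a fold change of 1.2, 3 of the 58 genes passed, all downward, where 3.39% of all tested genes did so. These were Ncl, Npm1 and Mybbp1a.

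**Figure D3:**
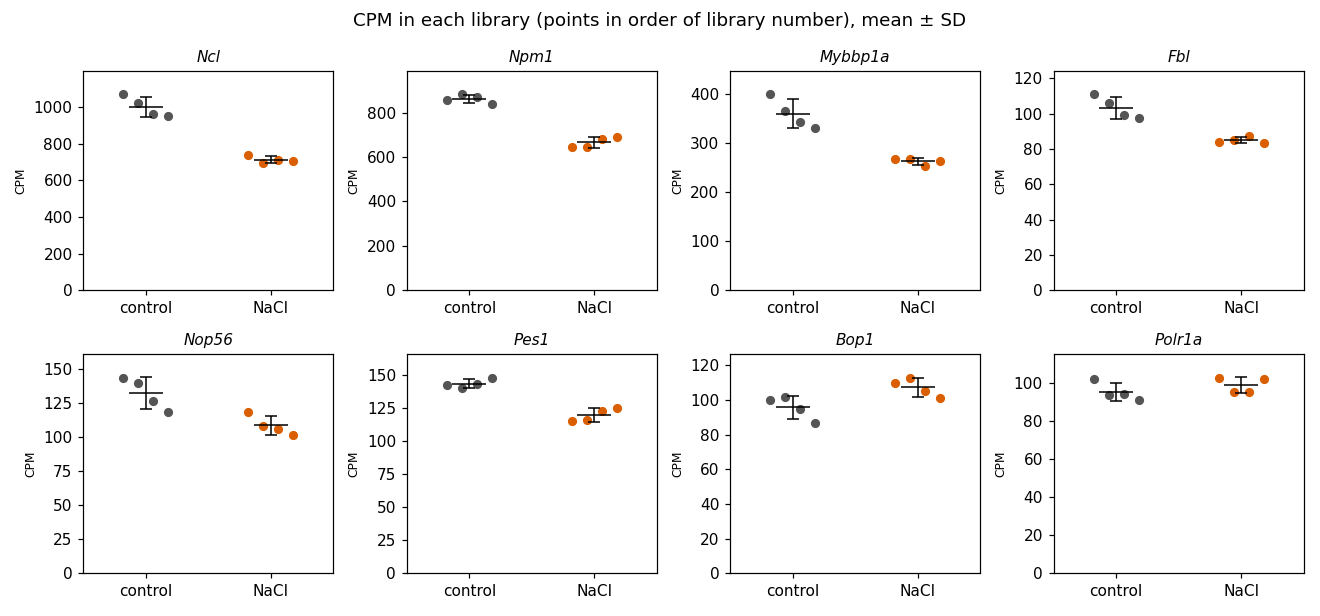
CPM in each library for 8 genes, with points in the order of library number inside each group and the mean ± SD (n = 4) as a black bar. Ncl, Npm1, Mybbp1a, Fbl and Pes1 are separated by group, Nop56 is separated narrowly, and the points of Bop1 and Polr1a overlap between groups.

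Most genes for RNA polymerase I itself did not pass the test. Of the 8 subunit genes, 2 fell with the group alone (25.0%, beside 17.2% of all tested genes) and none rose, at a median log2 fold change of -0.06. With the drift 1 fell (12.5%, beside 12.6%) and none rose. Polr1a (ENSMUSG00000049553), which encodes the largest, catalytic subunit, had 102, 93.7, 94.5 and 91.4 CPM in control and 103, 95.4, 95.2 and 102 CPM in NaCl libraries. The groups overlapped almost fully. The fold change on the log2 scale was 0.05 (95% interval from -0.04 to 0.14; adjusted p = 0.379). Polr1b, which encodes the other large catalytic subunit, had 33.65 ± 2.06 and 33.45 ± 0.659 CPM (SD, n = 4 each), and its log2 fold change of -0.01 had an interval from -0.12 to 0.10.

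Polr1d and Polr1g were the subunit genes that fell. Polr1d (ENSMUSG00000029642) encodes a small subunit that RNA polymerases I and III share. It had 104, 103, 102 and 104 CPM in control and 91.8, 93.3, 90.0 and 90.0 CPM in NaCl libraries, a tight separation. On the log2 scale the change was -0.18 (SE 0.034; edgeR adjusted p = 6.45e-04), and with the drift it was -0.15 (adjusted p = 0.115). Polr1g (ENSMUSG00000047649), which encodes a subunit that pairs with the Polr1e product, had 28.1, 27.1, 29.1 and 28.8 CPM in control and 23.2, 23.2, 23.9 and 28.4 CPM in NaCl libraries. NaCl replicate 8 lay among the controls and the other 3 NaCl libraries below them. The call at -0.20 (SE 0.068; edgeR adjusted p = 0.0351) was lost without control replicate 3 or 4 or NaCl replicate 5, 6 or 7 (adjusted p between 0.0619 and 0.108), while with the drift it was -0.43 (adjusted p = 0.00825).

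The other subunit genes did not pass the test. Polr1c, which encodes the second subunit shared with RNA polymerase III, had a log2 fold change of -0.09 (interval from -0.18 to 0.00; adjusted p = 0.116), and it was called lower without control replicate 1 (-0.13, adjusted p = 0.0273) and missed the threshold narrowly with the drift (-0.20, adjusted p = 0.0501). Polr1e had -0.09 (interval from -0.26 to 0.07), Polr1f, a subunit of the stalk that meets the initiation factor, had 0.04 (from -0.07 to 0.16), and Polr1h, a small subunit linked to RNA cleavage, had -0.03 (from -0.18 to 0.12). In all 4 genes the groups overlapped. Of the 5 subunits common to RNA polymerases I, II and III, Polr2e fell by 9.9% (adjusted p = 0.01) and Polr2f by 9.6% (adjusted p = 0.046), and the other 3 did not pass the test. The groups of Polr2f overlapped, and its call was kept only without control replicate 4 or NaCl replicate 8 (adjusted p between 0.0652 and 0.146 without any other library). With the drift neither gene was called (-0.06 and -0.02).

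Factors that act with RNA polymerase I were split. Ubtf (ENSMUSG00000020923) encodes UBF, the architectural protein that keeps ribosomal DNA open, and had 193, 186, 180 and 178 CPM in control and 182, 178, 180 and 175 CPM in NaCl libraries. The groups overlapped, and the log2 fold change was -0.04 (interval from -0.11 to 0.03; adjusted p = 0.379) with the group alone and 0.07 (adjusted p = 0.426) with the drift. Rrn3 (ENSMUSG00000022682) encodes TIF-IA, which makes the polymerase competent for initiation. It had 79.5, 78.0, 64.9 and 70.0 CPM in control and 71.6, 63.9, 68.7 and 61.1 CPM in NaCl libraries, which also overlapped. On the log2 scale the difference was -0.14 (interval from -0.29 to 0.00; adjusted p = 0.122), and it passed when control replicate 3 was left out (-0.20, adjusted p = 0.0225), while with the drift the sign turned (0.14, adjusted p = 0.286).

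Mybbp1a, Nolc1 and Tcof1 fell with the group alone. Mybbp1a (ENSMUSG00000040463) encodes a nucleolar protein that binds the polymerase machinery, and had 399, 365, 343 and 331 CPM in control and 268, 267, 253 and 263 CPM in NaCl libraries. The lowest control stood well above the highest NaCl library. On the log2 scale the change was -0.45 (SE 0.049; edgeR adjusted p = 4.25e-06), and with the drift it was -0.24 (adjusted p = 0.00521). Nolc1, which encodes a phosphoprotein that travels with snoRNPs, fell from 112.6 ± 6.99 to 93.28 ± 4.33 CPM (SD, n = 4 each; log2 fold change -0.27, adjusted p = 2.39e-04), and with the drift it had -0.09 (adjusted p = 0.4). Tcof1, which encodes treacle, a related phosphoprotein that recruits UBF and the polymerase, had 101, 86.6, 80.8 and 77.7 CPM in control and 79.0, 76.4, 65.8 and 68.0 CPM in NaCl libraries. The highest NaCl library lay above the lowest control. The call at -0.26 (edgeR adjusted p = 0.0443) was lost without control replicate 2 or NaCl replicate 6, 7 or 8 (adjusted p between 0.0529 and 0.106), and with the drift it was 0.17 (adjusted p = 0.131).

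Of the 7 snoRNP core genes among the 58, all but Nop10 fell with the group alone, beside 17.2% of all tested genes. None was called with the drift, where 12.6% of all tested genes fell and 11.5% rose. Box C/D particles place ribose methyl groups on ribosomal RNA. Fbl (ENSMUSG00000046865), which encodes their methyltransferase fibrillarin, had 111, 106, 99.2 and 97.6 CPM in control and 83.9, 85, 87.5 and 83.5 CPM in NaCl libraries. The groups were well separated (log2 fold change -0.28, SE 0.043; edgeR adjusted p = 7.46e-05), and with the drift the value was -0.15 (adjusted p = 0.14). At 98% identity, 57.6% of the Fbl transcript is shared with a transcript annotated to Tulp4, so reads of the 2 genes can be exchanged.

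Nop56 and Nop58 encode the paired scaffold of the same particles. Nop56 (ENSMUSG00000027405) had 144, 140, 127 and 119 CPM in control and 119, 108, 106 and 102 CPM in NaCl libraries. Its 2 groups met at 119 CPM in rounded values. The log2 fold change was -0.28 (SE 0.062; adjusted p = 0.00324), and with the drift it was 0.05 (adjusted p = 0.661). Nop58 had 158, 160, 140 and 133 CPM in control and 129, 121, 118 and 112 CPM in NaCl libraries, which gave -0.30 on the log2 scale (adjusted p = 0.00261) with the group alone and 0.03 (adjusted p = 0.822) with the drift. About 39% of the Nop56 transcript also occurs in 2 other genes' transcripts. The exons of Nop56 and Nop58 overlap snoRNA genes, as do those of Ncl (Snora75, 1.31% of the exon length).

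Box H/ACA particles turn uridine into pseudouridine. Of their 4 proteins, Gar1, Nhp2 and Dkc1 fell and Nop10 did not pass the test. Gar1 fell from 28.33 ± 2.07 to 23.05 ± 1.35 CPM (SD, n = 4 each; log2 fold change -0.30, edgeR adjusted p = 0.00216). Nhp2 fell from 61.54 ± 6.11 to 50.89 ± 2.73 CPM (log2 fold change -0.27, adjusted p = 0.00365). Dkc1 (ENSMUSG00000031403), which encodes the pseudouridine synthase dyskerin, had 55.4, 52.9, 44.7 and 44.0 CPM in control and 43.5, 45.1, 42.0 and 38.8 CPM in NaCl libraries. NaCl replicate 6 lay above 2 of the controls. The call at -0.22 (edgeR adjusted p = 0.0379) was lost without control replicate 1 or 2 or NaCl replicate 5, 7 or 8 (adjusted p between 0.0577 and 0.105). Nop10 had 21.42 ± 0.922 and 22.6 ± 1.69 CPM, a log2 fold change of 0.08 (interval from -0.06 to 0.22). With the drift the values were -0.11 for Gar1, 0.04 for Nhp2, 0.16 for Dkc1 and -0.01 for Nop10.

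The small subunit processome, the particle that folds and cuts the 18S part of the precursor, differed between the 2 fits. Of its 18 genes, 7 fell with the group alone (38.9%, beside 17.2% of all tested genes), none rose and 11 did not pass the test, and the median log2 fold change was -0.14. With the drift 2 fell and 2 rose (11.1% each, beside 12.6% and 11.5% of all tested genes), at a median of -0.04. Rrp9 (ENSMUSG00000041506), which encodes a protein of the U3 snoRNP, had 28.0, 25.4, 25.0 and 23.3 CPM in control and 21.8, 20.2, 19.7 and 19.0 CPM in NaCl libraries. Without overlap, the difference was -0.34 on the log2 scale (SE 0.069; edgeR adjusted p = 0.00115), and with the drift it was -0.04 (adjusted p = 0.851). Wdr43, of the subcomplex that loads first onto the precursor, fell from 82.59 ± 4.12 to 67.38 ± 2.31 CPM (SD, n = 4 each; log2 fold change -0.29, adjusted p = 6.87e-05). Its partners in that subcomplex, Utp4, Utp15 and Wdr75, had log2 fold changes of -0.10, -0.13 and -0.15 and did not pass the test. Without control replicate 4, Utp4 (adjusted p = 0.0254) and Wdr75 (adjusted p = 0.00738) were called lower. With the drift the values of Utp4, Utp15 and Wdr75 were positive (0.02, 0.12 and 0.12) and not called. Nop14 fell from 75.63 ± 1.89 to 63.72 ± 2.64 CPM (log2 fold change -0.25, adjusted p = 2.06e-04). With the drift Wdr43 and Nop14 each had -0.11 (adjusted p = 0.325) and were not called.

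Utp14a, Utp11, Utp3 and Rrp7a fell by less, with log2 fold changes from -0.21 to -0.15, and with the drift Utp14a, Utp11 and Utp3 had -0.12, -0.19 and -0.08 and were not called. Rrp7a (ENSMUSG00000018040) had 145, 145, 139 and 143 CPM in control and 119, 126, 125 and 131 CPM in NaCl libraries. It was the single processome gene called lower in both fits, at -0.19 (SE 0.036; edgeR adjusted p = 6.43e-04) with the group alone and -0.24 (adjusted p = 0.00624) with the drift. About 35% of the Rrp7a transcript is shared with 2 other genes, mostly Gm3436. Utp20 and Rrp36 had -0.07 and -0.10 and did not pass the test, although the groups of Rrp36 did not overlap. Utp6, Utp18 and Wdr36, partners in a second subcomplex, had log2 fold changes of -0.15, -0.13 and -0.11 and did not pass the test. Utp6 (adjusted p = 0.00671) and Wdr36 (adjusted p = 0.0218) were called lower without control replicate 4, and Utp6 (adjusted p = 0.0421) and Utp18 (adjusted p = 0.0388) without NaCl replicate 5. With the drift Utp6 and Utp18 were positive (0.19 and 0.09), Wdr36 had -0.05, and none was called.

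The remaining processome genes included those with values nearest or above 0. Utp25 had 20.2, 20.7, 17.3 and 18.8 CPM in control and 24.0, 18.8, 20.7 and 19.0 CPM in NaCl libraries, which overlapped (log2 fold change 0.10, interval from -0.08 to 0.28, adjusted p = 0.39). With the drift Utp25 was called higher, at 0.39 (adjusted p = 0.0384). Utp14b, the retroposed copy of Utp14a, had 16.2, 13.8, 11.9 and 11.1 CPM in control and 15.5, 12.8, 11.4 and 11.5 CPM in NaCl libraries. The spread within its groups was far larger than the difference between them, and its log2 fold change was -0.05 (adjusted p = 0.792) with the group alone and 0.62 (adjusted p = 0.00336) with the drift. Utp23 had -0.07 (adjusted p = 0.586) and -0.40 (adjusted p = 0.0387) in the same fits.

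Late steps of 40S maturation were mixed. Bysl (ENSMUSG00000023988), which encodes bystin, a factor bound to the 40S precursor, had 41.1, 40.6, 37.4 and 35.9 CPM in control and 43.2, 45, 40.6 and 43.8 CPM in NaCl libraries. It rose by 0.15 on the log2 scale (SE 0.055; edgeR adjusted p = 0.0391), although NaCl replicate 7 lay below control replicate 1. The call was lost without control replicate 3 or 4 or NaCl replicate 5, 6 or 8 (adjusted p between 0.0664 and 0.121), and with the drift the value was 0.31 (adjusted p = 0.0181). The exons of Bysl overlap those of Ccnd3 on the opposite strand over 9.37% of their length, and whether counting used strand is not given in the sources used here. The same limit holds for Rrp7a (12.53%, with Serhl), Utp23 (11.53%), Utp14a (11.45%) and Rrp8 (9.98%, with Ilk), among others.

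Rrp12, which encodes an export factor of the subunits, had 32.8, 28.3, 26.8 and 21.3 CPM in control and 23, 21, 22.4 and 21.8 CPM in NaCl libraries. Control replicate 4 lay among the NaCl libraries. The call at -0.31 (SE 0.104; edgeR adjusted p = 0.0356) was kept without control replicate 4 and lost without any other single library, and with the drift it was 0.13 (adjusted p = 0.583). Nob1, which encodes the endonuclease that makes the last cut of 18S RNA, had 58.63 ± 3.38 and 53.75 ± 1.89 CPM (SD, n = 4 each; log2 fold change -0.13, interval from -0.23 to -0.02, adjusted p = 0.0554), and passed without control replicate 2 (adjusted p = 0.0214). Nop9 had a log2 fold change of 0.04 (interval from -0.07 to 0.16), and its exons overlap those of Cideb on the opposite strand over 29.89% of their length.

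For 60S assembly, 7 of 13 genes fell with the group alone (53.8%, beside 17.2% of all tested genes), 1 rose and 5 did not pass the test, at a median of -0.18. With the drift 3 fell (23.1%, beside 12.6%) and 1 rose, at a median of -0.04. Pes1, Bop1 and Wdr12 encode the 3 proteins of the PeBoW complex, which acts in the processing of the large subunit RNA, and they did not move together. Pes1 (ENSMUSG00000020430) had 142, 140, 143 and 148 CPM in control and 115, 116, 123 and 125 CPM in NaCl libraries. All NaCl libraries lay below all controls. On the log2 scale the change was -0.26 (SE 0.037; edgeR adjusted p = 4.79e-05), and with the drift it was -0.39 (adjusted p = 1.05e-05).

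Bop1 (ENSMUSG00000022557) had 100, 102, 94.6 and 87.0 CPM in control and 110, 113, 105 and 101 CPM in NaCl libraries. NaCl replicate 8 lay just below control replicate 2, and the other NaCl libraries lay above all controls. Bop1 rose by 0.16 on the log2 scale (SE 0.050; edgeR adjusted p = 0.0205), with an interval from 0.06 to 0.27 where that of Pes1 was from -0.34 to -0.18. The call of Bop1 was lost without control replicate 3 or 4 or NaCl replicate 5 or 6 (adjusted p between 0.0548 and 0.0756), and with the drift the value was 0.41 (adjusted p = 3.58e-05). Wdr12 had 36.4, 37.2, 31.7 and 32.5 CPM in control and 37.7, 31.6, 30.1 and 30.6 CPM in NaCl libraries, which overlapped. Its log2 fold change was -0.09 (interval from -0.25 to 0.07; adjusted p = 0.4) with the group alone and 0.25 (adjusted p = 0.0954) with the drift. The differences between the 3 genes were not tested as such.

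Among the other 60S genes, Nop16 fell most, from 38.82 ± 2.92 to 30.57 ± 2.34 CPM (SD, n = 4 each; log2 fold change -0.35, edgeR adjusted p = 5.68e-04). Ebna1bp2 (ENSMUSG00000028729), an assembly factor, had 86.4, 85.6, 77.9 and 80.7 CPM in control and 67.7, 67.0, 65.8 and 70.1 CPM in NaCl libraries. The groups did not overlap, and the difference was -0.29 on the log2 scale (SE 0.043; adjusted p = 6.19e-05) with the group alone and -0.22 (adjusted p = 0.0361) with the drift. Rrs1, which helps to place the 5S particle, fell from 51.37 ± 2.52 to 42.59 ± 2.17 CPM (log2 fold change -0.27, adjusted p = 5.92e-04). With the drift Nop16 had -0.08 (adjusted p = 0.649) and Rrs1 -0.11 (adjusted p = 0.422), and neither was called. Rrp1b, Rrp8, a methyltransferase for large subunit RNA, and Nop2, another such enzyme, fell by 13.7%, 13.5% and 11.9%, and Rrp8 lost the call without control replicate 1 or 2 (adjusted p = 0.0589 and 0.0547). None of these 3 was called with the drift (-0.05, 0.01 and 0.01).

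Rrp1 stayed within 0.07 of no change on the log2 scale. It had 288, 289, 284 and 286 CPM in control and 288, 283, 282 and 292 CPM in NaCl libraries (interval from -0.07 to 0.06), the tightest of the 58 genes by standard error (0.030). Rrp15 had -0.12 on that scale (adjusted p = 0.176), and Wdr74 had 0.01 (interval from -0.11 to 0.12). Nop53 had -0.08 (adjusted p = 0.202) with the group alone, -0.13 without control replicate 1 (adjusted p = 0.0241) and -0.31 with the drift (adjusted p = 2.81e-04).

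**Figure D4:**
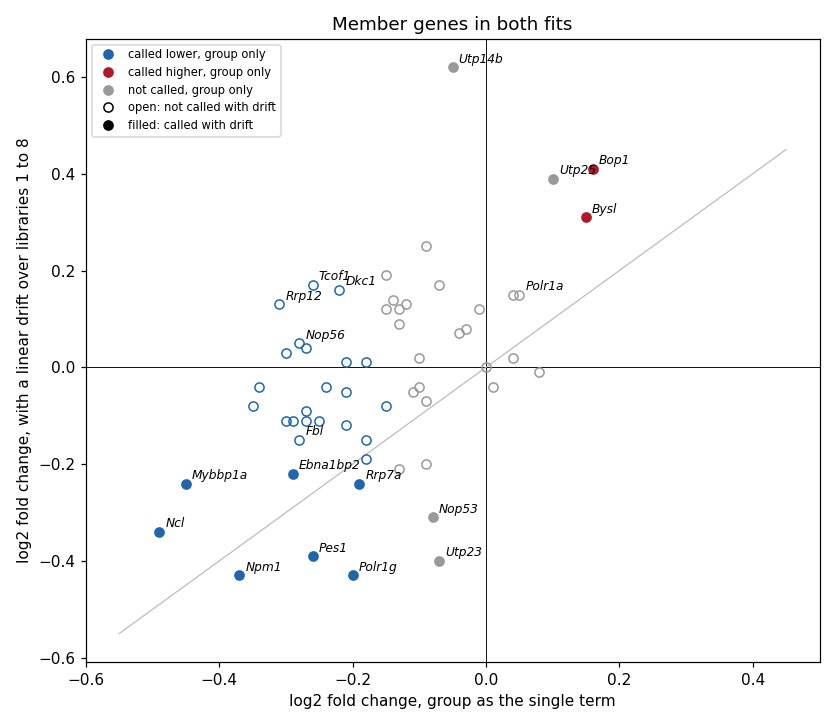
Log2 fold change of each gene with the group as the single term (horizontal) against that with an added linear drift over libraries 1 to 8 (vertical), with the grey line marking equal values. Filled points were called with the drift. Ncl, Npm1, Mybbp1a, Pes1, Ebna1bp2, Rrp7a and Polr1g are blue and filled in the lower left, Bop1 and Bysl are red and filled in the upper right, and Tcof1, Dkc1 and Rrp12 changed sign.

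Promoter sequence was examined because many of the genes moved in 1 direction. RefSeq promoters of GRCm38.p6, from 250 bases before to 50 after each start, were matched for 47 of the 58 genes. The E-box CACGTG, a palindrome bound by Myc and its partner Max, was in a promoter of 12 of the 47 genes (25.5%), where 11.3% of the genes of the count table with a matched promoter and 8.09% of all genes held it. It was in 6 of 23 genes that fell (26.1%) and in 6 of 23 that did not pass the test (26.1%). The hexamer TGGAAA, searched on both strands as the core of the tonicity element, was in 7 of 23 (30.4%) and 5 of 23 (21.7%), against 20.2% in genes of the count table. The background was not matched for base composition or number of promoters per gene, and a match shows only that these letters are present.

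The 250 bases before the start are shown for the 7 genes called in both fits that had a promoter in the table, to let their motifs be compared, with E-boxes and tonicity cores in capitals. The strand is minus for Ncl, Rrp7a, Polr1g and Bysl and plus for Mybbp1a, Pes1 and Ebna1bp2, and the positions are chr1:86359456-86359705 (Ncl), chr11:72441077-72441326 (Mybbp1a), chr11:3963725-3963974 (Pes1), chr15:83122802-83123051 (Rrp7a), chr4:118620549-118620798 (Ebna1bp2), chr7:19359484-19359733 (Polr1g) and chr17:47611493-47611742 (Bysl).
Ncl: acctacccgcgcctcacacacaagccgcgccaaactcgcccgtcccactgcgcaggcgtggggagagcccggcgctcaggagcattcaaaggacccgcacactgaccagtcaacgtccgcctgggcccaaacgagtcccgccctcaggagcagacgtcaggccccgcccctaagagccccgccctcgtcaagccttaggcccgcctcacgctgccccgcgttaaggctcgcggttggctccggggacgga
Mybbp1a: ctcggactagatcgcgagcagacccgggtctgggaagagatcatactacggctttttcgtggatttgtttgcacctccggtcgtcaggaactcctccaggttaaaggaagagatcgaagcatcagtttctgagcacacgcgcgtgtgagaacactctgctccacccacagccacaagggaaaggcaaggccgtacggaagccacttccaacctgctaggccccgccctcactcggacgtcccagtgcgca
Pes1: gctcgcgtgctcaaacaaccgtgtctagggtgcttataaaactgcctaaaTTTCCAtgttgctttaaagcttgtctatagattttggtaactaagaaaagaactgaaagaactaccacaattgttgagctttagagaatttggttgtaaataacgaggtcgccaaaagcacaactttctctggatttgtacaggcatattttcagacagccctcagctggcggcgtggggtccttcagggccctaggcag
Rrp7a: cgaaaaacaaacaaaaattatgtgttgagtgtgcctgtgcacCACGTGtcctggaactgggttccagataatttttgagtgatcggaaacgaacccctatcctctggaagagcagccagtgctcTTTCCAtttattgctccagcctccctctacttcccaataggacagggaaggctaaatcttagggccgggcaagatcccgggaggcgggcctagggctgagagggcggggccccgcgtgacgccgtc
Ebna1bp2: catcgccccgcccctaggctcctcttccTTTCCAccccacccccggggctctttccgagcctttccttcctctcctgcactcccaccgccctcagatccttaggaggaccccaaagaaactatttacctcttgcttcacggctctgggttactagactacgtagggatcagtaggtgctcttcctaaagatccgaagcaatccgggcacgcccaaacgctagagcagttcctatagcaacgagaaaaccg
Polr1g: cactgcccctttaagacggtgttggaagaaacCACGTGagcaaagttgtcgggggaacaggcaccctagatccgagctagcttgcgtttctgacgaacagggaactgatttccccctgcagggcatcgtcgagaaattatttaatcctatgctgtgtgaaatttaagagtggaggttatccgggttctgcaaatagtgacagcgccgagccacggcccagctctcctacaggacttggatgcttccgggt
Bysl: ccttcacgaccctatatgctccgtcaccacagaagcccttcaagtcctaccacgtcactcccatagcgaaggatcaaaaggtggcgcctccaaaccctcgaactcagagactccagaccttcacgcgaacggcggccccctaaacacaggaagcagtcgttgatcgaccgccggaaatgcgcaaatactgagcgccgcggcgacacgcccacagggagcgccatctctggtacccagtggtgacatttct
The Rrp7a window holds an E-box 208 bases before the start and a tonicity core at 126, and the Polr1g window holds an E-box at 218. Pes1 and Ebna1bp2 each hold a tonicity core, 200 and 222 bases before the start. The windows of Ncl, Mybbp1a and Bysl hold neither, although Mybbp1a, Pes1 and Polr1g each have an E-box, and Rrp7a a further tonicity core, in the 50 bases after the start.

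Other genes of the pathway came from lists of factors outside the symbol rule, and their counts stand beside the 17.2% of all tested genes that fell and the 16.9% that rose. Of 41 other processome and 40S genes, 15 fell and none rose, at a median log2 fold change of -0.11. Aatf fell by 22.4% (adjusted p = 8.02e-05), Tsr1 by 15.9% and Riok2, a kinase of late 40S maturation, by 14.9%. Of 47 other 60S genes, 19 fell and none rose, also at a median of -0.11. Mrto4, a factor that holds the place of the stalk protein on the precursor, fell by 33.9%, from 51.8, 49.2, 45.3 and 46.5 CPM in control to 32.2, 32.2, 32.1 and 30.9 CPM in NaCl libraries (edgeR adjusted p = 1.69e-07), and by more than any of the 58 genes. With the drift, 1 of the 41 fell (2.44%) and 3 rose (7.32%), and 5 of the 47 fell (10.6%) and 2 rose (4.26%), all below the 12.6% and 11.5% of all tested genes. Mrto4 was still called (-0.44, adjusted p = 7.39e-04), and Aatf, Tsr1 and Riok2 were not.

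Of 14 genes of the RNA exosome and its cofactors, which trim precursor ends, 7 fell and 1 rose. Dis3, a nuclease of the complex, fell by 23.6% (adjusted p = 0.00115), and Exosc5 rose by 22.6% (adjusted p = 0.00697). Of 11 genes for proteins of RNase MRP and RNase P, 1 fell and 1 rose, Pop5, by 36.8% (adjusted p = 2.54e-04). Of 10 snoRNP assembly genes, 5 fell, among them the paired ATPase genes Ruvbl1 and Ruvbl2 (17.0% and 15.6% lower), and Pih1d1 rose by 18.4%. With the drift none of the 14, 2 upward of the 11 and 3 downward of the 10 were called. Pop5 (0.81) and Ruvbl2 (-0.31) were among those still called, while Dis3 (-0.02), Exosc5 (0.16), Ruvbl1 (-0.06) and Pih1d1 (0.22) were not.

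Genes for the other parts of the transcription machinery were counted in the same way. Of 12 genes for the selectivity factor, termination and ribosomal DNA chromatin, Taf1d fell (17.0% lower) and Phf8 rose (15.4%). Of 20 genes specific to RNA polymerase III and its factors, 2 fell and 5 rose, among them Polr3g (24.3% lower), Gtf3c6 (16.4% higher) and Gtf3c1 (15.3% higher). Polr3g lost the call without control replicate 3 or NaCl replicate 5 or 6 (adjusted p between 0.0519 and 0.0665). Of 8 subunits particular to RNA polymerase II, Polr2a alone was called, at 299, 271, 274 and 265 CPM in control and 328, 334, 323 and 319 CPM in NaCl libraries (17.6% higher, edgeR adjusted p = 1.63e-04). With the drift none of the 12 was called, and 1 of the 20 fell and 2 rose. Polr2a (0.37), Gtf3c6 (0.33) and Polr3g (-0.90) were then still called, while Taf1d (0.01), Phf8 (0.23) and Gtf3c1 (0.12) were not.

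Regulators known to act upstream of ribosome biogenesis were compared as well. Of 25 such genes, 7 fell (28.0%) and 1 rose (4.0%) with the group alone, and 8 fell and none rose with the drift. Mycl, a Myc family gene at a very low level here, fell by 54.9%, from between 0.545 and 1.21 CPM in control to between 0.333 and 0.449 CPM in NaCl libraries (log2 fold change -1.15, adjusted p = 0.016), and with the drift it had -1.93 (adjusted p = 0.0463). The call of Mycl was lost without control replicate 4 (adjusted p = 0.0749). Mxd4, which encodes a partner of Max that opposes Myc, rose by 21.8% (adjusted p = 3.05e-05) but was not called with the drift (0.14, adjusted p = 0.118), and Mycn and Sesn2 fell by 23.3% and 21.7%. Mycn kept its call only without control replicate 1 or NaCl replicate 8 (adjusted p between 0.0565 and 0.119 without any other library). Myc and Mtor lie outside the rule for named genes and were named after their values were seen. Myc had 50.4, 50.8, 51.2 and 54.7 CPM in control and 43.2, 46.2, 45.9 and 50.1 CPM in NaCl libraries, which did not overlap (10.5% lower, edgeR adjusted p = 0.022). The call was lost without control replicate 4 or NaCl replicate 5, 6 or 7 (adjusted p between 0.0522 and 0.0711), and with the drift the value for Myc was -0.36 (adjusted p = 0.00193). Mtor, which encodes the kinase of the growth pathway, was 5.4% higher and did not pass the test (edgeR adjusted p = 0.109), although its groups did not overlap. With the drift the value for Mtor was 0.02 (adjusted p = 0.9).

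Ribosomal protein genes, whose products these factors assemble, give a comparison at other numbers. Of 82 cytosolic ribosomal protein genes, 67 fell and none rose with the group alone (median log2 fold change -0.21), and 70 fell with the drift (median -0.33). Their slope over the library number within groups passed the test upward in 30 genes and downward in none, where in the 58 biogenesis genes it passed downward in 17 and upward in 1. Of 78 mitochondrial ribosomal protein genes, 14 fell (17.9%, beside 17.2% of all tested genes) and 3 rose, at a median of -0.05, and with the drift 4 fell and 8 rose, at a median of 0.03. The differences between these lists were not tested.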

How the data were processed

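Gene counts for 8 libraries (4 control, 4 NaCl) were deposited by the authors as whole-number counts per Ensembl gene with symbols. Trim Galore 0.6.7, STAR, DESeq2 1.34.0 and the build mm10 are named in the submitters' processing notes, and the counting program, strand setting and filter are not given in the sources used here. A deposited table of scaled counts was not used.

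Counts were filtered with filterByExpr (minimum count 10), leaving 14024 of 15288 genes, and fitted with edgeR 4.0.16 in R 4.3.3 (TMM factors, robust quasi-likelihood F test, group as the single term, Benjamini-Hochberg adjustment over all tested genes). CPM used TMM-scaled library totals. Intervals are 95% from the fit's t distribution. The fit was tested on simulated counts. Alternatives were other size factors, other filters, DESeq2 1.42.0, limma-voom (limma 3.58.1), a drift over library number, stricter thresholds and leaving out each library. Shared sequence was measured with blastn 2.17.0 (at least 75 bases at 98% identity) on GENCODE M21 transcripts.

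The genes and lists were chosen with earlier results of these data known. Named with values were the polymerase subunits, the snoRNP and PeBoW proteins, other core factors, and in each role the 3 highest and 3 lowest fold changes. Other genes of the 58 given with values (such as Rrp7a, Rrp8, Rrp1b, Nop2, Nop53 and the Utp genes near 0) were named after their values were seen.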

Additional observations from a re-analysis of the deposited data

Results flagged for a closer look

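Among 82 sets of 4 CPM values (41 named genes in each group), 3 had a single library far from its neighbours, where chance gives about 4.1. Nop16 had 34.06 CPM in NaCl replicate 5 and 29.23 to 29.68 CPM in the other NaCl libraries. Polr1b had 36.72 CPM in control replicate 1 and 32.3 to 32.84 CPM in the other controls. Polr1g had 28.37 CPM in NaCl replicate 8 and 23.16 to 23.9 CPM in the other NaCl libraries.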

How the results depend on the processing

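No paired analysis was possible because the library numbers 1 to 4 and 5 to 8 are not shared between the groups. With other size factors, other filters, DESeq2 or limma-voom, the number of the 58 genes that fell stayed between 27 and 29 and 2 rose. With the library number centred within groups 38 fell and 2 rose, and calls among all tested genes went from 4789 to 6030. Leaving out each library gave 26 to 32 called genes, 25 to 32 lower and 0 to 2 higher, and 24 of the 31 calls were kept in all 8 of these fits. With the linear drift 13 genes were called, 9 lower and 4 higher, and 3382 of all tested genes. A test against a fold change of 1.2 called 3, all lower and 0 higher, and 1076 of all tested genes. An adjusted p under 0.01 left 24 lower, 0 higher and 3145 of all tested genes. With the drift the direction turned, among the genes named by rule, for Dkc1 (0.16), Nhp2 (0.04), Nop10 (-0.01), Nop56 (0.05), Nop58 (0.03), Polr1b (0.12), Polr1h (0.08), Rrn3 (0.14), Rrp12 (0.13), Tcof1 (0.17), Ubtf (0.07), Utp14b (0.62), Wdr12 (0.25) and Wdr74 (-0.04), and among the others for Nop2 (0.01), Rrp8 (0.01), Rrp15 (0.13), Utp4 (0.02), Utp6 (0.19), Utp15 (0.12), Utp18 (0.09), Utp20 (0.17) and Wdr75 (0.12). The cause was not tested. With library totals alone Polr1b had 0.00 and Rrp1 0.01, and the calls of Dkc1 (adjusted p = 0.0646) and Tcof1 (0.0691) were lost, as was that of Rrp12 with limma-voom (0.0565). Leaving out a library gave log2 fold changes from -0.03 to 0.03 for Polr1b, -0.07 to 0.02 for Polr1h, -0.02 to 0.00 for Rrp1, -0.15 to 0.06 for Utp14b and -0.02 to 0.02 for Wdr74.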
